A study of Mus musculus with 4 samples.

Results

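Colonic epithelial cells of germ-free mice were compared with those of wild type mice, 1 expression array against 1, over every probe set that is not a control. This is 2 of the 4 arrays of the study; the other two hold ileal epithelium of the same kinds of mice. The wild type array carried RNA from the proximal colon of 4 C57/Bl6 mice, called control or wild type in the labels. The germ-free array carried RNA from 4 germ-free mice of the C57/Bl6 strain, also from proximal colon. Both groups share the strain and the capture of epithelial cells by laser microscopy from tissue sections, with about 4000 cells of each mouse pooled into about 16000 per array. No drug, diet or age is given for either group, and hematoxylin staining is mentioned for the germ-free sections only. Each group is therefore a pool of 4 mice read once: the spread between mice is not in the data, no test was possible, and each difference below has no replicate check. The arrays read 45037 probe sets besides 64 controls. Of these, 34945 carry 1 gene symbol, which gives 18193 genes.

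Germ-free mice are reared in isolators and carry no bacteria, fungi or other cultivable microbes. In a conventional mouse the proximal colon holds a dense bacterial community that ferments fibre to short-chain fatty acids, splits and dehydroxylates bile acids, and provides ligands for receptors of the innate immune system and for the aryl hydrocarbon receptor. The epithelium that faces it is a single sheet of absorptive colonocytes, mucus-secreting goblet cells and rarer enteroendocrine and tuft cells, renewed from stem cells at the base of the crypts. Underneath lies the lamina propria, where plasma cells make the IgA that the epithelium carries into the lumen.

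Values are array intensities after quantile normalization over the 4 arrays, and differences are log2 of germ-free over wild type. Intensities below 62.4, the pooled median, were set to that floor, and a gene counted as measured when at least 1 colon array was above it. Where 1 array lay under the floor the fold is a bound, written "at least". Each gene is represented by its brightest probe set, and levels of different genes are not compared, since probe sets differ in brightness.

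The arrays carried the markers of epithelium. All 15 measured of 15 pan-epithelial markers were within 2-fold between the arrays, from -0.48 to 0.38, with a median of 0.12 that became -0.16 with median scaling. Epcam, the adhesion molecule of all gut epithelium, read 9687 on the wild type and 10951 on the germ-free array, and the brush border protein Vil1 read 5814 and 6767. The defining markers Cd3e of T cells, Ms4a1 of B cells, Pecam1 of endothelium and Myh11 of smooth muscle were below the floor on both arrays, but other markers of these cells were not. On the wild type array the plasma cell gene Igha read 4609, Cd8a of T cells 374, Kdr of endothelium 326 and the muscle actin Acta2 1465. Control probe sets differed between the arrays in the values as deposited. Hybridization spikes had a median difference of 0.17 and the 3 probe sets for 18S ribosomal RNA of -1.23. The 5' signal relative to the 3' signal, a measure of how complete the labelled RNA is, differed by -0.48 for Gapdh, -0.43 for Pcx, -0.12 for Actb and 0.64 for Tfrc. RNA quality and the germ-free state cannot be told apart with 1 array each. In RNA pooled from many cells, fewer cells of a type and less RNA per cell cannot be told apart either.

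More genes were lower than higher without microbes. Of 11746 measured genes, 152 were higher by 2-fold or more on the germ-free array (1.29% of those measured) and 379 lower by 2-fold or more (3.23%). Counted by probe set the imbalance was smaller: of 24192 measured, 456 were higher (1.88%) and 644 lower (2.66%). The middle 50% of genes lay between -0.29 and 0.23, around a median of -0.01. By gene, the imbalance held at larger sizes: 27 genes were higher and 76 lower by 3-fold or more, 8 and 22 by 4-fold, and 0 and 6 by 8-fold. Those lower by 8-fold were Ces2a, Cyp3a25, Igkv8-30, Abcg5, Slc30a10 and Igha. Among 7124 genes reading above 259, the pooled 75th percentile, on 1 colon array or both, 85 were higher and 236 lower by that measure. The balance rested on the scaling: genes higher made up 28.6% of all past 2-fold here, 51.8% in the deposited values and 19.3% with median scaling, while the median of all genes moved to 0.09 and -0.14.

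**Figure D1:**
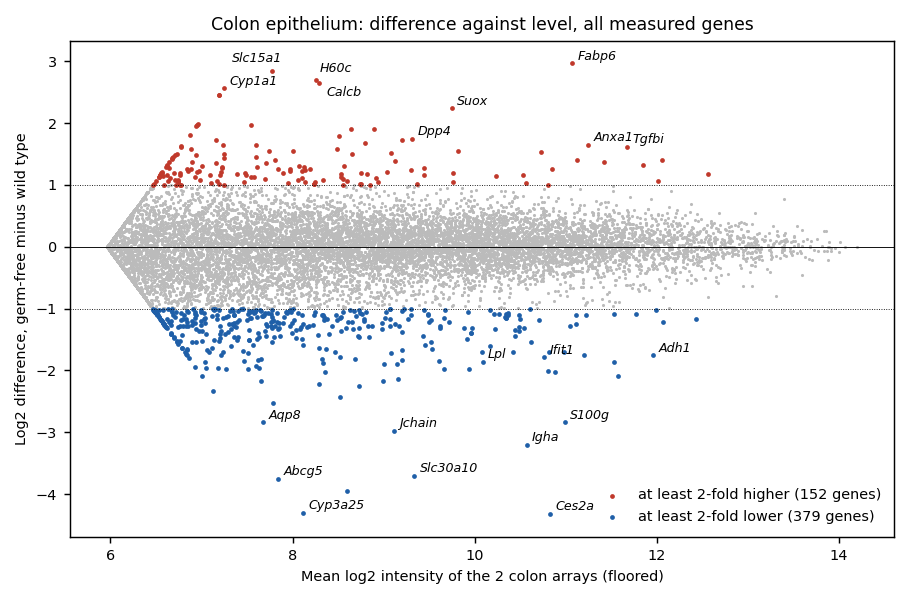
Difference between the germ-free and wild type colon arrays (log2, vertical axis) against the mean log2 intensity of both (horizontal axis), 1 point for each of the 11746 measured genes. Red points are the 152 genes higher by 2-fold or more and blue points the 379 lower by 2-fold or more; the slanted left edge is the floor, and blue points reach farther from 0 than red ones.

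How far a single value can be trusted can be read in part from genes with several probe sets, which measure the same RNA on the same arrays. Among 2217 genes that have 2 or more bright probe sets, the difference of the brightest and that of the next brightest disagreed with an SD of 0.29. Among 1077 genes outside that set, whose dimmer probe set lay not far above the floor, the SD was 0.44, and among the 892 brightest it was 0.22. Of the 2217 genes, 46 were past 2-fold by the brightest set, and for these the next set went the same way for 34 and was also past 2-fold for 17. Over all genes past 2-fold that have several measured probe sets, every set went the same way for 42 of 56 higher and 70 of 121 lower genes. A value close to 2-fold from 1 dim probe set is therefore the least certain kind. This spread holds nothing of the differences between mice. It also leaves out errors of capture, amplification and labelling that the probe sets of a gene share, so it is not the whole technical error.

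**Figure D2:**
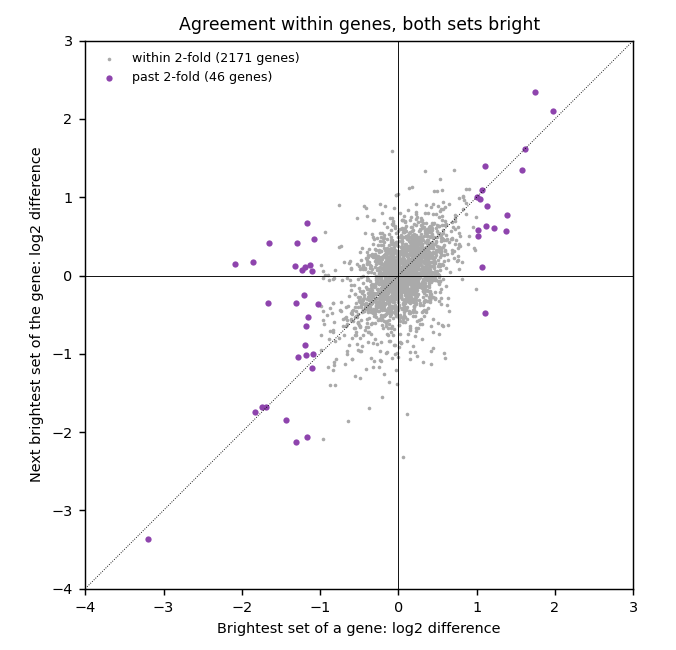
Difference (log2, germ-free minus wild type colon) of a gene's brightest probe set (horizontal axis) against that of its next brightest (vertical axis), for 2217 genes with both above the pooled 75th percentile. Purple points are the 46 genes past 2-fold by the brightest set, of which 34 lie on the same side of 0 on both axes; a group of lower genes has a next set near 0.

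The genes with the largest differences in each direction were taken by rule, 25 higher and 25 lower, from genes that were bright on 1 array or both and had no measured probe set pointing the other way. Those higher on the germ-free array were led by genes of the small intestinal enterocyte. Fabp6, the ileal bile acid binding protein, read 767 on the wild type and 6008 on the germ-free colon array, 7.83-fold higher. The peptide transporter Slc15a1 read 81.3 and 586, 7.20-fold higher, and the proline and glycine transporter Slc6a20a 246 and 924, 3.75-fold higher. The membrane peptidase Dpp4 was 3.36-fold higher at 347 and 1169, and its 4 probe sets ranged from 1.54 to 2.35 log2. Enpep, another peptidase of the brush border, read 996 and 2898, 2.91-fold higher. All of these were brighter on both ileal arrays than on either colon array.

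Others among the higher genes are signals, receptors and enzymes. H60c, a ligand of the activating lymphocyte receptor NKG2D, read 120.2 and 783 (6.52-fold), and Calcb, which encodes calcitonin gene-related peptide beta, 125 and 785 (6.28-fold). Cyp1a1, the monooxygenase that the aryl hydrocarbon receptor induces, was below the floor at 17.9 on the wild type array and read 369.6 on the germ-free array, at least 5.92-fold higher. Il1rn, the antagonist of interleukin 1, read 207 and 775 (3.75-fold), with both of its probe sets close together (1.91 and 1.97 log2). Anxa1 and Tgfbi are secreted proteins, the former known to dampen inflammation and the latter a component of matrix. Anxa1 read 1366 and 4294, 3.14-fold higher, and the matrix protein Tgfbi read 1865 and 5708, 3.06-fold higher, with 4 probe sets between 1.32 and 1.69 log2. Ptger3, a receptor for prostaglandin E2, read 110.0 and 343 (3.12-fold). The tyrosine kinase gene Ptk6 was at least 5.49-fold higher by its brightest probe set at 55.5 and 343, whereas its other set gave 0.37 log2. The adhesion receptor Adgrd1 was at least 5.46-fold higher (26.5 and 341).

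Metabolic enzymes completed this set. Suox, the sulfite oxidase of mitochondria, read 395 and 1866 (4.72-fold), and Agmo, which cleaves ether lipids, 322 and 1070.3 (3.33-fold). Lrat, which esterifies retinol for storage, read 208 and 623 (probe sets 1.35 and 1.58 log2), and the monooxygenase Cyp2d9 240.0 and 678 (2.83-fold). The remaining members were Ttc36 (3.90-fold), the BMP-binding protein Bmper (3.48-fold), the mucosal pentraxin Mptx1 (3.30-fold), the clock output factor Dbp (3.21-fold), Flacc1 (3.12-fold), Itpripl2 (2.93-fold) and the tubulin-binding Tppp3 (2.85-fold). The next gene after these stood at 1.41 log2.

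The lower genes reached larger sizes. Ces2a, a carboxylesterase that hydrolyses ester drugs and neutral lipids, read 8119 on the wild type and 406 on the germ-free array, 20.0-fold lower. Cyp3a25, a monooxygenase of drugs and steroids, read 1234 and 34.3, below the floor and at least 19.8-fold lower. Slc30a10, the exporter of manganese, read 2330.5 and 179 (13.0-fold), with its other probe set at -2.87 log2. Together they span ester hydrolysis, oxidation and metal export. Abcg5 and Abcg8 encode the partner subunits of the transporter that returns sterols to the lumen. Abcg5 read 838 and 59.3, at least 13.4-fold lower, and Abcg8 425 and 94.7, 4.49-fold lower.

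Transport proteins of minerals, water and small acids were among the lower genes. S100g, the calcium buffer calbindin-D9k of absorptive cells, read 5434 and 759 (7.16-fold). The colonocyte water channel Aqp8 read 545 and 76.4 (7.14-fold), and the sugar phosphate exchanger Slc37a2 315 and 38.7 (at least 5.04-fold). Slc16a9 of the monocarboxylate transporter family read 661 and 162 (4.07-fold), and its 3 probe sets lay between -2.02 and -1.12 log2. The agreement of a gene's probe sets is a condition of the rule and not a finding. Enzymes were Gstt1, a glutathione transferase (1195 and 272, 4.40-fold), Ggt5, which trims glutathione conjugates and leukotriene C4 (676 and 145, 4.66-fold), and Cyp26b1, which degrades retinoic acid (266 and 31.9, at least 4.25-fold). Malic enzyme Me1 read 306 and 77.6 (3.95-fold), and the desaturase Scd1 1946 and 494 (3.94-fold), although the other probe set of Scd1 gave -0.85 log2. Hs3st2, a heparan sulfate sulfotransferase, was 3.94-fold lower.

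Defence and plasma cell genes made up much of the rest. The IgA heavy chain Igha read 4609 and 501 (9.19-fold), its 3 probe sets between -3.37 and -3.20 log2, and Jchain, which joins IgA into dimers, read 1549 and 197 (7.87-fold). The light chain segment Igkv8-30 was 15.5-fold lower (1524 and 98.6), a probe set that may take up related segments. Reg3g, a lectin that binds Gram-positive bacteria, read 1602 and 409 (3.91-fold), and Sprr1a, a small proline-rich protein, 923 and 194 (4.74-fold). The others were Vstm5 (5.39-fold), Ankrd36 (4.05-fold), Tnni1 (3.88-fold), Fam13a (3.80-fold) and the neurexin Nrxn3 (3.74-fold). Of the named genes, 19 higher and 20 lower ones rest on 1 probe set.

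**Figure D3:**
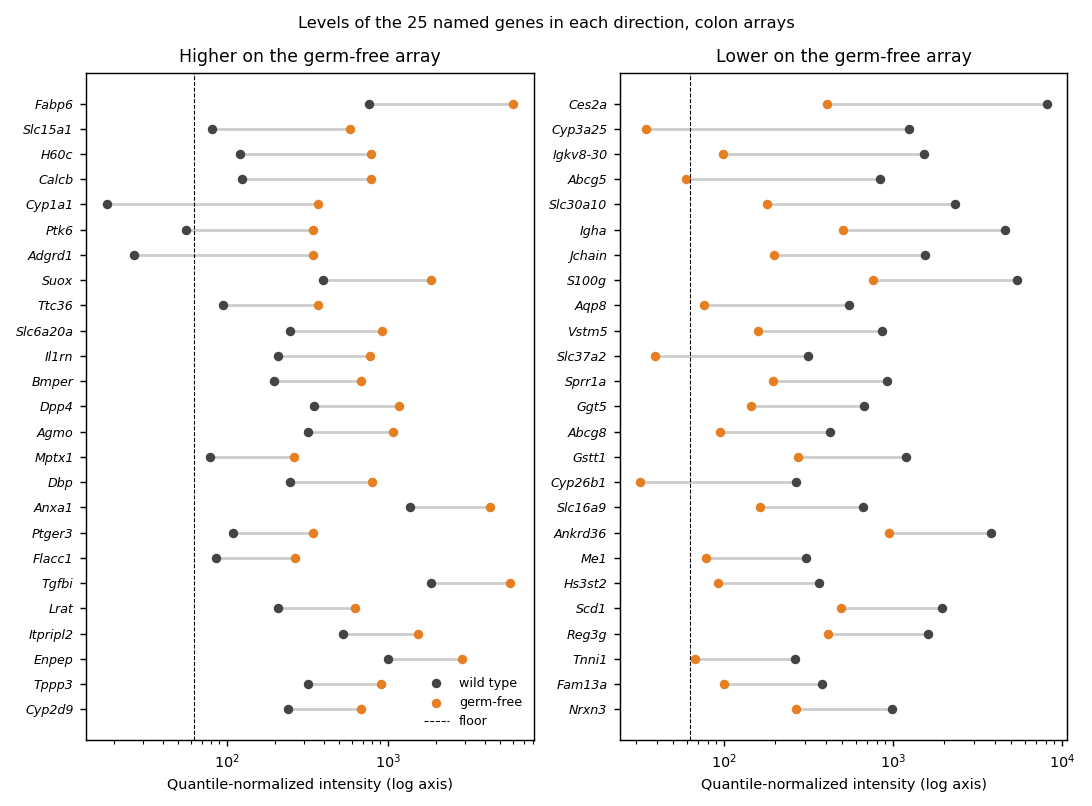
Quantile-normalized intensity (log axis) of the 25 named genes in each direction, with a dark point for the wild type and an orange point for the germ-free colon array. The dashed line is the floor of 62.4; Fabp6 at the top left runs from 767 to 6008, and Ces2a at the top right from 8119 to 406.

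Genes of nutrient uptake typical of the small intestine stood higher without microbes. Over all measured genes 1.29% were higher and 3.23% lower by 2-fold or more. Each list count from here on is to be read beside those shares, and 1 member past 2-fold is no result about a list. Of 26 measured markers of ileal and small intestinal enterocytes, 8 were higher by 2-fold or more and 1 lower, with a median of 0.44. Besides those named above, the apolipoproteins Apoa1 and Apoc3 crossed the floor, Apoa1 from 34.8 to 245 and Apoc3 from 58.3 to 193, at least 3.93-fold and 3.09-fold higher. The lower member was Reg3g. Not every marker was on the high side: Apoa4 read 78.0 and 46.8, Ace 93.9 and 69.0, and Lgals2 618 and 489. Of 14 brush border peptidases, which cut peptides to absorbable pieces, 3 were higher and 13 of 14 lay above 0, with a median of 0.45. Naaladl1 read 2342 and 5834 (2.49-fold), and the meprins Mep1a (8717 and 9489) and Mep1b (4900.4 and 6659.8) differed little. Of 24 peptide and amino acid transporters 4 were higher and 0 lower, with a median of 0.20. They were Slc15a1, Slc6a20a, the cystine transporter subunit Slc7a9 (1366 and 3625, 2.65-fold) and the aromatic amino acid transporter Slc16a10 (65.9 and 147, 2.24-fold). Slc3a1, the partner of Slc7a9, read 1846 and 2796. Dpp4, Slc15a1 and Slc6a20a had already been named for the size of their difference. The counts of these lists are therefore not readings separate from the named genes.

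Among 8 genes of sugar digestion and transport, Slc5a9, a sodium-coupled sugar transporter, read 173 and 355 (2.05-fold), and the glucose transporter Slc2a8 300.2 and 138 (2.18-fold lower). The main glucose carrier of the enterocyte, Slc5a1, differed less, at 2404 and 3128. Of 17 nucleotide and vitamin uptake genes, 1 was past 2-fold: the biotin and pantothenate transporter Slc5a6 read 62.9 and 143 (2.28-fold). The colonocyte side was less marked. Of 24 colonocyte markers 2, Aqp8 and Slc37a2, were lower by 2-fold or more and 0 higher, with a median of -0.19. Slc26a3, the chloride and bicarbonate exchanger, read 8724 and 6893, and Car1 14384 and 12438. Of 23 regional transcription factors and Hox genes, 1 was past 2-fold. This was the nuclear receptor gene Hnf4g at 268 and 560.5 (2.09-fold), whose 3 probe sets ran from -0.18 to 1.06 log2. Cdx2, the master regulator of intestinal identity, read 2415 and 3140.0.

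Bile acid and sterol genes differed member by member. Conjugated bile acids enter the ileal cell through Slc10a2, are bound by Fabp6 and leave through the Slc51a and Slc51b pair, while the receptor Nr1h4 (FXR) senses them. Of 12 measured genes of this route only Fabp6 was past 2-fold, with a list median of 0.19 that became -0.06 with median scaling. Slc10a2 read 261 and 424, Slc51a 2535 and 3718, and Slc51b 3564 and 4297. Nr1h4 itself read 2036 and 2614, and its target Nr0b2 (SHP) 111 and 54.4. In sterol efflux and uptake, 3 of 13 genes were lower and 1 higher. Besides Abcg5 and Abcg8, the lipoprotein receptor Scarb1 read 313 and 97.7 (3.21-fold lower). The higher one was Npc1l1, which takes up cholesterol from the lumen, at 213 and 430.1 (2.02-fold). The liver X receptor Nr1h3 and the other sterol exporter Abca1, by contrast, were within 2-fold (144 and 122 for Nr1h3, 890.3 and 669 for Abca1). None of 21 cholesterol synthesis genes was past 2-fold, and their median was 0.16, or -0.06 with median scaling. Idi1, an isomerase of that pathway, read 947 and 1763, and the regulator Srebf2 445 and 304.

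Several fatty acid synthesis genes were lower. Of 23 measured, 5 were lower by 2-fold or more and 0 higher, but the median was -0.10. Besides Me1 and Scd1 these were the acyl-CoA synthetase Acsl3 (3313 and 1358, 2.44-fold), the acetyl-CoA carboxylase Acacb (329 and 142, 2.32-fold) and the desaturase Fads2 (499 and 223, 2.24-fold). Another probe set of Fads2 went the other way (0.67 log2). Fatty acid synthase Fasn read 973 and 1014, its regulator Srebf1 840.4 and 1003, and the sibling desaturase Scd2 3717 and 3861, so the central enzyme and the regulator were near equal on both arrays. In storage and clearance of circulating fat, lipoprotein lipase Lpl read 2070.0 and 572 (3.62-fold lower) and the nuclear receptor Pparg 2215 and 876 (2.53-fold lower). Angptl4, a secreted inhibitor of that lipase which microbes are known to suppress in gut epithelium, read 284 and 649.8 (2.29-fold higher). These were the 3 members past 2-fold of 18, with a median of -0.25. Ppara read 709 and 799.

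Fatty acid oxidation, the tricarboxylic acid cycle and the respiratory chain were close to equal on both arrays, while glycolysis lay more on the low side. None of 26 genes of fatty acid oxidation and butyrate use was past 2-fold, nor of 24 genes of the tricarboxylic acid cycle or 49 of the respiratory chain, and the respective medians were 0.00, -0.08 and -0.04 (-0.22, -0.35 and -0.35 with median scaling). The butyrate carrier Slc16a1 read 3678 and 2207, a difference of -0.74, and Acads, which opens butyrate oxidation, read 1260.5 and 814. Oxct1, which uses ketone bodies, read 2089.8 and 4143 and lay just inside 2-fold (0.99). In glycolysis 1 of 15 genes was past 2-fold, the hexokinase Hk2 (3239 and 1508). Of the 15, 13 were below 0, with a median of -0.25 (-0.49 with median scaling). Of 14 genes of gluconeogenesis, fructose and glycogen, Tkfc, which phosphorylates triose sugars, was 2.43-fold higher (96.0 and 233) and the glycogen branching enzyme Gbe1 2.07-fold higher (195 and 404).

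Enzymes that clear foreign compounds were lower in some families and not in others. Of 12 carboxylesterases 3 were lower and 0 higher, with a median of -0.50. Ces1f read 3406 and 1439.6 (2.37-fold lower), Ces2e 4167 and 2251, and Ces2b 6506 and 4338. The probe sets of the third lower member, Ces5a, did not go the same way. Butyrylcholinesterase Bche was on the other side at 1257 and 2409. Carboxylesterase genes of the same subfamily can be close copies, and hybridization can spread between those. Of 21 glutathione genes 4 were lower and 0 higher, with a median of -0.48: Gstt1, its neighbour in the family Gstt2 (1106 and 473, 2.34-fold), Gstm3 (2343 and 947, 2.47-fold) and Gstm5 (382 and 141, 2.71-fold). Gclc, which makes glutathione, and Gsr, which reduces it, were on the other side (2741 and 3858 for Gclc, 361 and 583 for Gsr).

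The P450 list was divided. Of 23 measured genes of the xenobiotic receptors and P450 families 2 and 3, 3 were lower and 2 higher, with a median of -0.04. Next to Cyp3a25 the lower ones were Cyp2c38 (379 and 107, 3.53-fold) and Cyp3a11 (194 and 37.6, at least 3.11-fold), and the higher ones Cyp2d9 and Cyp2d10 (987 and 2220.5, 2.25-fold). Another member of the 3a family, Cyp3a44, read 666 and 745. The xenobiotic receptor Nr1i3 (CAR) was at 119 and 33.4, and Nr1i2 (PXR) at 666 and 721. In the aryl hydrocarbon receptor list, Cyp1a1 was the single member past 2-fold of 6. The receptor Ahr read 538 and 622, and its other targets Cyp1b1 (69.4 and 82.2), Tiparp (735 and 649) and Nqo1 (149 and 137) were near equal. None of 15 sulfation and glucuronidation genes or of 15 drug transporters was past 2-fold. The efflux pump Abcb1a read 13314 and 7682, a difference of -0.79.

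Mineral, ion and vitamin genes held single large values among many near-equal ones. Of 37 ion and water transport genes 2 were lower, Aqp8 and the glycerol channel Aqp7 (154 and 66.8, 2.30-fold). The mineralocorticoid-regulated kinase Sgk1 read 3340.0 and 6239 and the sodium channel subunit Scnn1a 697 and 1139.9, both within 2-fold. All but 1 of 9 carbonic anhydrases were on the low side, with a median of -0.46 and none past 2-fold; Car2 read 3774 and 1958. S100g was alone past 2-fold among 10 calcium absorption genes: the vitamin D receptor Vdr read 5494 and 5940.3, and the calcium channel Trpv6 110.5 and 124. Slc30a10 was alone among 19 metallothionein, zinc and manganese genes, where Mt2 read 1655 and 3149 and the manganese importer Slc39a14 1035 and 1317. In iron and heme handling the transferrin receptor Tfrc read 2621 and 6904 (2.63-fold higher), but 1 of its 3 measured probe sets went the other way (-0.33 log2). Biliverdin reductase Blvrb read 247 and 86.1 (2.87-fold lower), and the iron exporter Slc40a1 7606 and 5401.

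Vitamin A genes went both ways. Lrat and the retinol transporter Stra6 (29.6 and 139.8, at least 2.24-fold) were higher, while Cyp26b1 and the alcohol dehydrogenase Adh1, which oxidises retinol, (7296 and 2166, 3.37-fold) were lower. These were the 4 past 2-fold of 18 members, with a median of -0.12.

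Interferon-stimulated genes were lower without microbes in most members. Of 36 measured members 10 were lower by 2-fold or more and 0 higher, against 3.23% of all genes lower, and 33 were below 0, with a median of -0.50 beside -0.01 over all genes. The list was chosen with earlier results of these data known, so this comparison is a description only. With the floor at the 75th percentile 6 were lower. Interferons act on cells through transcription factors, Stat2 and Irf9 among them, which bind the interferon-stimulated response element in front of these genes. Because the Ifit genes stood lowest in the list, the 250 bases before the start of Ifit3 and Ifit1 are shown, from the RefSeq annotation of GRCm38.p6, 5′ to 3′. Capitals mark each match to GAAA, any 2 bases and GAAA on either strand. The windows are chr19:34583279-34583528 and chr19:34640639-34640888, both on the plus strand.
Ifit3: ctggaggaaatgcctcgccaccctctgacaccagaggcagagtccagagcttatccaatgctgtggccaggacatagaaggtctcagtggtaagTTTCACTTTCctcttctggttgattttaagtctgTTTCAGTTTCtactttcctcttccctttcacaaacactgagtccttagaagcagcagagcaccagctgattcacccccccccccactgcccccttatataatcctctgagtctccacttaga
Ifit1: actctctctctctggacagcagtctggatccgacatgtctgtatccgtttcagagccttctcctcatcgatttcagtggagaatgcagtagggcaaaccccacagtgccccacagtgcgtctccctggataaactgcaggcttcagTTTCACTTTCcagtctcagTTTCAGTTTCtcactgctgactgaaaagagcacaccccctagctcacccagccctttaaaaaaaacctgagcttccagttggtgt
The matches begin -156 and -122 bases from the start of Ifit3, and -104 and -85 from that of Ifit1. Neither of the windows listed for Ifit2 held the letters. Of 25 interferon-stimulated genes with a promoter in the table, 8 held a match (32%), against 936 of 27025 genes in the whole table (3.46%) and 300 of 9514 genes measured here (3.15%). Among all genes lower by 2-fold or more the share was 4.59% (14 of 305) and among those higher 4.13% (5 of 121). A match describes the letters in the window and not a bound site.

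Ifit3 read 1097 on the wild type and 295 on the germ-free array (3.72-fold lower), and Ifit1 3228 and 934 (3.45-fold). Ifit2 read 217 and 37.9, below the floor and at least 3.47-fold lower. The Ifit proteins bind foreign RNA and block its translation. Rsad2 (viperin) read 3255 and 1005 (3.24-fold), Phf11d 1217 and 405 (a difference of -1.59) and Rtp4 1610.4 and 576 (2.80-fold). The antiviral sensor Oas3 read 345 and 127 (2.72-fold). The transcription factors themselves differed less: Stat2 read 96.4 and 85.8, Irf9 208 and 189 and Irf7 5660.2 and 3960.4. The 3 members above 0 were Ddx58 (the RNA sensor RIG-I) at 367 and 567, Cmpk2 at 587 and 741 and Ifi27l2b at 917 and 1023. Of 12 genes of the interferon-gamma GTPases and their companions, Igtp alone was past 2-fold (447 and 181, 2.47-fold lower), with a list median of -0.37.

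Antigen presentation genes leaned the same way. Of 11 MHC class II genes 2 were lower and 9 below 0, with a median of -0.37. H2-Ab1 read 776 and 329 (2.36-fold), H2-Aa 809 and 359 (2.26-fold), and the invariant chain Cd74 816 and 450.3. Their activator Ciita was near the floor (80.9 and 27.9). Of 19 MHC class I and immunoproteasome genes 1 was lower, H2-Q10 (355 and 161, 2.20-fold), with a median of -0.40. The peptide transporter Tap1 read 175 and 109.9, the proteasome subunit Psmb8 329.9 and 204, and the light chain B2m 9159 and 7972. In the values as deposited, and without probe sets that match several transcripts, no gene of either list was past 2-fold, and the class II median was -0.40 and -0.20 in turn. MHC class II and class I genes are also expressed by immune cells, whose markers are given with their values further on.

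Antimicrobial proteins were lower in part. Of 16 measured 4 were lower and 0 higher, with a median of -0.35. With the floor at the 25th percentile the median was -0.10, and with it at the 75th -0.09. Besides Sprr1a and Reg3g the 4 lower members were Reg4 (703 and 257, 2.74-fold) and the protease inhibitor Wfdc2 (543 and 238, 2.28-fold). Reg3b, the sister lectin of Reg3g, read 10122 and 11493, a difference of 0.18 that turned to -0.15 with median scaling, and the mucus lectin Zg16 16920.0 and 15902. The IgA list had 4 of 7 members lower and a median of -1.07, which became -0.15 when probe sets matching several transcripts were dropped. Pigr, the receptor by which the epithelium carries IgA across, read 8752 and 7457, so the transporter differed by -0.23 while Igha differed by -3.20. Igha, Jchain and Igkv8-30 are genes of plasma cells and not of epithelium.

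Sensors and signals of innate immunity went both ways. Of 24 Toll-like and NOD receptor genes 1 was past 2-fold, Tlr4, the receptor for bacterial lipopolysaccharide, at 245 and 556 (2.27-fold higher), and its partner Cd14 read 342 and 673. The receptors for lipopeptides and for flagellin were on the other side, Tlr2 at 607 and 309 and Tlr5 at 309.7 and 160.3. Of 36 cytokine and chemokine genes 3 were higher and 1 lower. The higher ones were Il1rn, the chemokine Ccl25 (143 and 304, 2.13-fold), which draws lymphocytes to the small intestine, and the death ligand Tnfsf10 (183 and 388, 2.12-fold). Il18 was lower (760.3 and 276, 2.75-fold), and Il15, which sustains intraepithelial lymphocytes, read 1092 and 568. Of 16 gasdermin, caspase and inflammasome genes, Gsdme (1188 and 2846, 2.40-fold) and the lipopolysaccharide-sensing caspase Casp4 (1058 and 2164, 2.05-fold) were higher. Il18 and Gsdmc2 (2013 and 658, 3.06-fold) were lower. Among 10 acute phase and complement genes, Saa2 (68.5 and 148, 2.16-fold) and complement factor Cfb (301 and 608, 2.02-fold) were higher, Saa1 read 8267 and 14149, and Saa3 was on the other side at 677 and 397. That list's median was -0.15, and 0.65 with the floor at the 75th percentile. Of 10 ligands for lymphocyte receptors, H60c and Ccl25 were the members past 2-fold; Ulbp1, another NKG2D ligand, read 125 and 67.6.

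Among the secretory lineages, goblet cell and mucus genes were near equal on both arrays: none of 31 was past 2-fold and the median was -0.07. Muc2, the gel of the mucus layer, read 13409 and 11951, Tff3 14257 and 13612, and Clca1 7629.5 and 6858. Of 22 enteroendocrine genes only Calcb was past 2-fold. Peptide YY (Pyy) read 3431 and 3103, neurotensin Nts 3634 and 2592, and chromogranin Chga 5631 and 4469. Tuft cells, the chemosensory cells that release interleukin 25, had more members on the low side: 4 of 16 measured genes were lower and 0 higher, and 14 were below 0, with a median of -0.73. Dclk1 read 194 and 84.2 (2.30-fold), Rgs13 1051 and 487 (2.16-fold), and the taste channel Trpm5 233 and 113 (2.06-fold). Siglecf, which eosinophils share, read 302 and 139.6 (2.16-fold). In the values as deposited 1 member was lower and the median was -0.49, and with the floor at the 75th percentile 1 was lower. Apart from Rgs13, the members past 2-fold read at most 302, in the range where the spread between probe sets is wide. Of 20 fucosyl- and sialyltransferase genes, St3gal6 (682 and 197) and the sialic acid enzyme Gne (1206 and 542, 2.22-fold) were lower, although the probe sets of St3gal6 went both ways. Fut2, which fucosylates the surface and is known to respond to microbes, read 221 and 265.

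Cell cycle genes were on the high side on the germ-free array. Of 50 measured, 5 were higher by 2-fold or more, 1 lower and 37 above 0, with a median of 0.32 that ranged from 0.25 with the mean of probe sets to 0.51 in the values as deposited. The count of higher members was less stable: 12 as deposited, 3 without probe sets that match several transcripts and 0 with the floor at the 75th percentile. Mcm10 and Mcm6, which start DNA replication, read 63.2 and 179.6 (2.84-fold) and 87.1 and 184 (2.12-fold). Kif23, a motor of cell division, read 81.5 and 202 (2.48-fold), and Uhrf1 53.9 and 137 (at least 2.19-fold). Cdc20 read 117 and 321, but 1 of its 3 probe sets went the other way (-0.41 log2), the value that remains when probe sets matching several transcripts are dropped. The exception was the mitotic kinase Aurkb at 146 and 59.3 (at least 2.34-fold lower), and Foxm1 and Plk1 were also on the low side (153 and 96.6 for Foxm1, 149.7 and 96.2 for Plk1). The members past 2-fold were dim, the highest reading among them being 321 for Cdc20. The crypt list had 2 of 20 members higher, Ccnd2 (186 and 404, 2.17-fold) and Sox9 (67.7 and 136, 2.01-fold), and a median of 0.04 (-0.10 with median scaling). The stem cell receptor Lgr5 was below the floor on both arrays.

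Among clock genes, outputs and repressors were the members that stood higher. Of 21 measured 4 were higher and 0 lower, with a median of 0.11 that became -0.07 with median scaling. Dbp read 249 and 797, although its other probe set gave 0.61 log2, Per1 73.2 and 206 (2.81-fold) and Cry2 211 and 436 (2.07-fold). The probe sets of Per2 (24.4 and 191) went both ways. The activators Clock (1282 and 1382) and Arntl (480.4 and 551) were within 2-fold. No time of day is given for either group. An E-box (CACGTG), the site of the activators, was in the window before the start of 4 of 17 clock genes (23.5%) and of 9.99% of measured genes. The 4 were Ciart, Cry1, Per1 and Tef, and the windows of Dbp and Cry2 did not hold it. Immediate early genes, which answer a stimulus within minutes, had none of 25 past 2-fold and a median of -0.24; Egr1 read 3367 and 1857 and Fos 6234 and 4547.

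Stress and barrier genes were mostly level. Of 36 endoplasmic reticulum genes 2 were lower, Chac1 (171 and 75.8, 2.25-fold) and Derl3 (356 and 169, 2.11-fold), the latter a gene that plasma cells express strongly. The heat shock list had 1 of 17 lower, Hspb1 (480.0 and 161, 2.99-fold). No gene was past 2-fold among 30 claudins and junction proteins, 18 of oxidases and peroxide defence, 20 apoptosis regulators, 19 hypoxia targets or 31 ribosomal proteins. The claudin median was 0.18, and -0.11 with median scaling. In that list Cldn4 read 841 and 491 and Pkp3 1334 and 2200.0. Among 18 eicosanoid and nitric oxide enzymes, the epoxide hydrolase Ephx1 was lower (152 and 65.5, 2.32-fold).

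**Figure D4:**
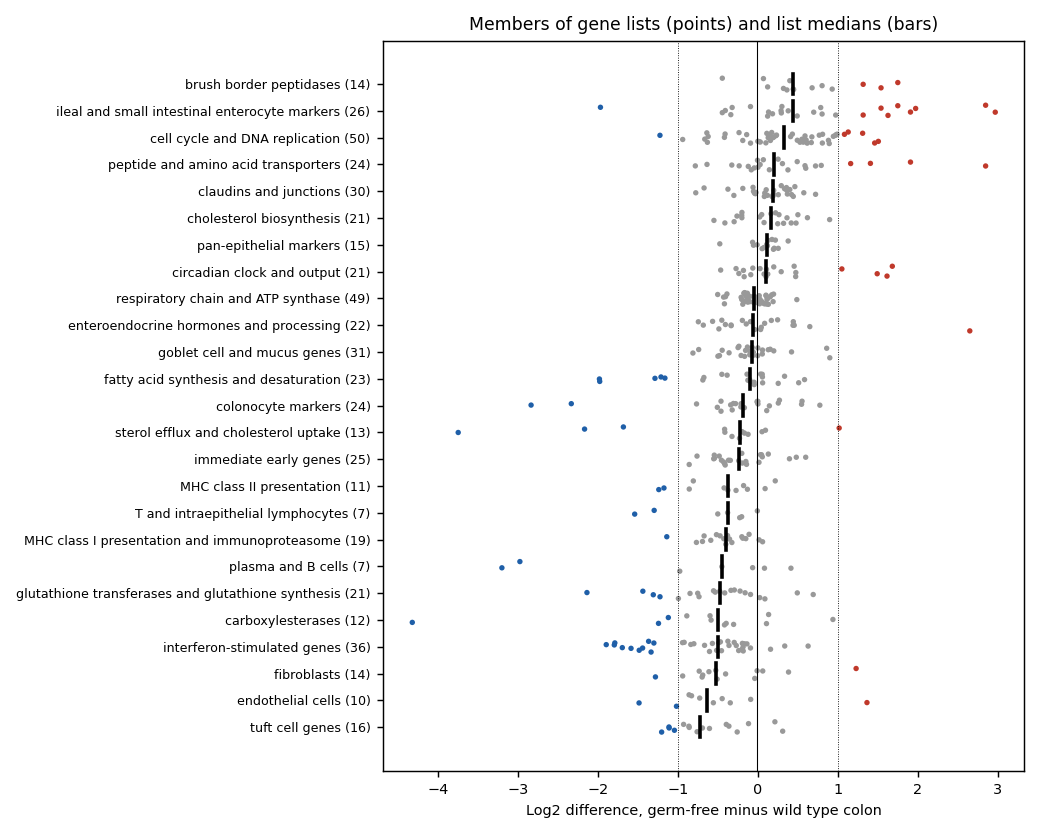
Difference of the measured members of 25 gene lists (log2, germ-free minus wild type colon, horizontal axis), 1 point per gene, with the list median as a bar and the number of measured members in parentheses. Red and blue points are genes higher and lower by 2-fold or more, dotted lines mark 2-fold and the solid line the median of all genes; the peptidase median lies at 0.45 at the top and the tuft cell median at -0.73 at the bottom.

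Several lists of markers of cells other than epithelium had medians below 0, with few members past 2-fold. Among 7 of 16 plasma and B cell markers above the floor, 2 were lower by 2-fold or more, with a median of -0.45. Without probe sets that match several transcripts that median was -0.03, with 1 lower. Summed intensities take in every marker matched on the array, also those under the floor. Over 13 matched plasma and B cell markers the sum was 15565 on the wild type and 11614 on the germ-free array. Of 7 T and intraepithelial lymphocyte markers 2 were lower, with a median of -0.38. The sums over 18 matched were 1738 and 1184. Cd8a read 374 and 129 (2.91-fold) and the granzyme Gzma 153 and 48.3 (at least 2.46-fold), while the pan-leukocyte marker Ptprc read 304 and 302. For 11 myeloid markers the count was 1, Adgre1 (472 and 221), and the median -0.34. The sums over 20 matched were 3082 and 2694. The summed intensities of these 3 lists were lower on the array on which the interferon, MHC and IgA lists were lower. For plasma and B cells this is no separate reading, since Igha and Jchain are members of that list and of the IgA list. Igha alone, at 4609 and 501, fell by more than the plasma and B cell sum did. The part of these cells in the interferon, MHC and IgA results was not tested.

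Vessel and connective tissue markers were on the low side too, with exceptions. Over 10 of 19 endothelial markers the median was -0.64, and the sums over all 19 were 1907 and 1349. The receptor Kdr read 326 and 116 (2.80-fold lower), Plvap 208 and 103 (2.02-fold lower), and the lymphatic marker Lyve1 28.2 and 161, at least 2.57-fold higher. Over 14 fibroblast markers the median was -0.52, and the sums over 19 matched were 5803 and 4559. The matrix proteoglycan Bgn was lower (452 and 186), the receptor Pdgfrb higher (180.1 and 422), and the collagen Col3a1 read 1118 and 785. Over 9 smooth muscle markers the median was -0.24, with 6 below 0, Tpm2 3.51-fold lower and Acta2 at 1465 and 1500.5. The sums over 17 matched went the other way, 8731 and 10022. Neurons and glia (6 measured), mast cells and eosinophils (4), fat cells (6) and acinar cells (3) had few markers above the floor, and red blood cells 0. The Paneth list had 5 members measured in a tissue that normally lacks those cells, and its members past 2-fold were Nupr1, a stress protein of many cells (4294 and 1284, 3.35-fold lower), and Mptx1.

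The ileal arrays give the same comparison in another stretch of gut, on arrays not shared with the colon. Their 5' signal relative to the 3' signal differed by -1.10 for Gapdh and -1.20 for Actb, more than between the colon arrays. For Pcx (-0.28) and Tfrc (-0.10) it differed less than in colon. What this adds to the contrast between regions was not tested. There, 27 of 11750 measured genes were higher by 2-fold or more (0.23%) and 82 lower by 2-fold or more (0.698%). Of the named colon genes measured in the ileum, 1 of 21 higher and 5 of 23 lower ones were past 2-fold the same way. The single shared higher gene was Cyp1a1, at 53.0 and 282 on the wild type and germ-free ileal arrays. Fabp6, in contrast, read 16920.0 and 18189.5 there, Slc15a1 2887 and 3457, and Dpp4 6251 and 6118. The shared lower ones were Ces2a, S100g, Igha, Jchain and Igkv8-30. Cyp3a25 read 4650.1 and 2655 in the ileum, Abcg5 3708 and 2534, and Slc30a10 303 and 196, so each was within 2-fold there. Over 11065 genes measured in both regions, 13 were lower in both, 3.69% of the 352 lower in colon and 19.1% of the 68 lower in ileum. The higher lists shared 1 gene, 0.714% and 4.35%.

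Beyond the named genes, those lower in both regions were Lpl, Tpm2, the proteoglycan Ogn, Gzma, Nupr1, the growth factor binding protein Igfbp3, Tmem140 and the secreted Fstl1. Lpl read 323 and 95.6 in the ileum, Tpm2 995 and 288, and Nupr1 256 and 119. Several of these are expressed outside the epithelium, in vessels, muscle and connective tissue. The lists gave other medians in the ileum. That of the interferon-stimulated genes was -0.16 against -0.50 in colon, that of the tuft cell genes -0.01 against -0.73, that of the glutathione genes 0.06 against -0.48 and that of the ileal enterocyte markers 0.02 against 0.44. Those of MHC class II and class I were closer, -0.26 and -0.25 against -0.37 and -0.40. Some lists lay lower in the ileum than in the colon. The interferon-gamma GTPases had -0.55 against -0.37, T and intraepithelial lymphocytes -0.59 against -0.38, and smooth muscle -0.44 against -0.24. The difference between regions was not tested.

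**Figure D5:**
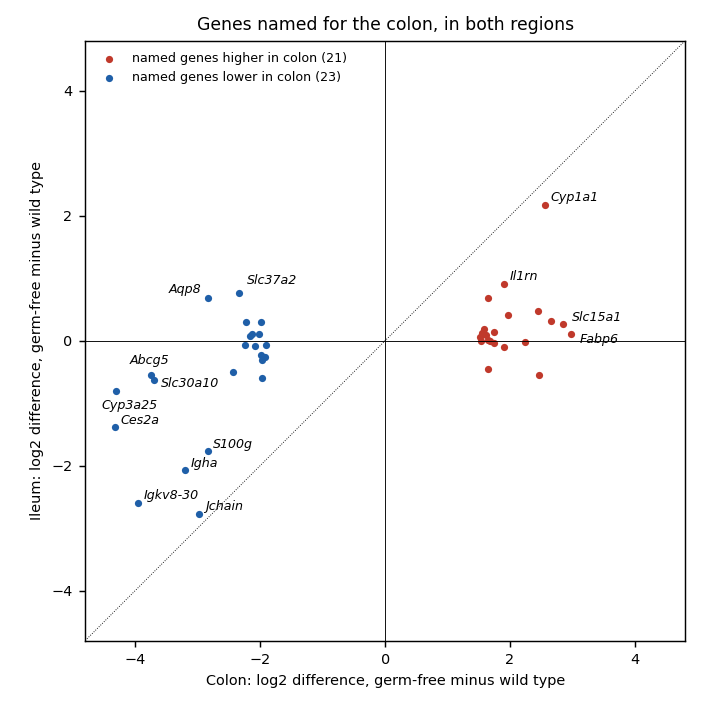
Difference between germ-free and wild type (log2) in colon (horizontal axis) and ileum (vertical axis) for the named colon genes measured in both, 21 higher (red) and 23 lower (blue) in colon. The dotted line marks equal values; Cyp1a1 lies near it at the upper right and Jchain at the lower left, while Fabp6 and Slc15a1 lie near 0 on the ileum axis.

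Probe sets without a gene name were more often higher than lower. Of 3511 measured unnamed probe sets 134 were higher by 2-fold or more (3.82%) and 72 lower (2.05%), while of 20110 with 1 gene 316 were higher (1.57%) and 551 lower (2.74%). Their median was 0.10 against 0.01. What these transcripts are was not analysed here.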

How the data were processed

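The study measured gene expression with 1 Affymetrix mouse array per group, each carrying RNA pooled from laser-captured epithelial cells of 4 mice. Per the labels' protocols, 2 rounds of amplification from 40 ng of RNA preceded labelling. The values are linear intensities of probe sets, which the authors deposited after analysis with dCHIP software per the series' design text; its normalization options are not stated in the sources used here. The small number of arrays sets the precision.

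The deposited intensities of the brighter 50% of probe sets had medians that differed by up to 0.32 log2 between arrays, more than the set limit of 0.25, so all 4 arrays were quantile-normalized (Python 3.11.15, numpy 2.4.6, pandas 2.3.3). Intensities were then floored at the pooled median (62.4). Probe sets were named through the platform's annotation with symbols updated through a RefSeq gene table (34741 of 34945 probe sets with 1 gene matched); 932 with several genes and 9160 unnamed ones stayed out of the gene counts. A gene's value is that of its brightest probe set. A gene was called past 2-fold from its log2 difference. The steps were tested on simulated arrays.

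The 25 genes named per direction are those with the largest difference whose brighter colon array was above the pooled 75th percentile and with no measured probe set pointing the other way, with genes that have only a clone name skipped (0 higher, 3 lower). For each list, the members past 2-fold were named, up to the 6 largest, and members whose level is the point. The 72 lists (1604 of 1829 entries matched) and the members were chosen with earlier results of these data known. Promoter windows come from the RefSeq table of GRCm38.p6. With 1 array per group there is no error between samples and no p-value. Alternatives were the scaling, the floor and the choice of probe set.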

Additional observations from a re-analysis of the deposited data

Results flagged for a closer look

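A set of 4 genes was lower by 2-fold or more on the germ-free colon array and higher by 2-fold or more on the germ-free ileum array. Of 11065 genes measured in both regions, 352 were lower in colon and 23 higher in ileum by that measure. With 1 array per group the difference between regions was not tested. The neuronal acetylcholine receptor subunit Chrna3 differed by -1.46 log2 in colon (172 on the wild type and 54.4 on the germ-free array, the latter below the floor) and by 1.01 in ileum (76.7 and 154). 9030619P08Rik, a gene with only a clone name, differed by -1.15 in colon (225 and 101) and 1.22 in ileum (60.3 and 146, the wild type value below the floor). The ubiquitin ligase gene Rnf144b differed by -1.06 in colon (189 and 90.3) and 1.01 in ileum (62.8 and 126). The pseudogene Tes3-ps differed by -1.01 in colon (170 and 84.6) and 1.13 in ileum (138 and 303). All 4 were dim, with no colon value above 225. No gene was at least 2-fold higher in colon and lower in ileum. With 140 of the 11065 genes higher in colon and 68 lower in ileum, that absence is not read as a result.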

How the results depend on the processing

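The counts in both directions rested on the floor and on the scaling. Genes at least 2-fold higher numbered 152 here, 296 in the values as deposited, 409 with the floor at the 25th percentile, 50 with it at the 75th and 1230 with no floor. Genes at least 2-fold lower numbered 379 here, 275 in the values as deposited and 501 with median scaling. With the floor at the 25th percentile there were 768, with it at the 75th 136 and with no floor 1634. A lower floor lets in dim probe sets and a higher one leaves them out; the cause of the shift as deposited was not tested. The other alternatives gave 120 to 162 higher and 292 to 397 lower genes.

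Of 68 list medians, each under up to 8 alternatives, 58 values from 28 lists lay on the other side of 0 from the reported median, and for 4 of them both values were 0.1 or farther from 0. The claudin median became -0.11 and the pan-epithelial median -0.16 with median scaling, while with the floor at the 75th percentile the acute phase median became 0.65 and the fat cell median 0.22. Apart from those 4, 11 values lay farther than 0.29 log2 from the reported median and 528 did not. Counts within lists fell with the floor at the 75th percentile, to 6 lower interferon-stimulated genes, 2 of fatty acid synthesis and 1 of sterol efflux, 1 higher clock gene and 0 lower T cell and endothelial markers. Without probe sets that match several transcripts 1 carboxylesterase was lower. Of the 50 named genes 35 stayed past 2-fold under each alternative that gave a value. None changed sign, which is not a result. Their probe sets agree by the rule, a floor cannot reverse a difference, and their differences are large beside the shifts from scaling. No value could be given for neurons and glia with the floor at the 75th percentile. No paired analysis was possible because each group has 1 array, and for the same reason no replicate could be left out.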
